A study of Homo sapiens with 5 samples.

Results

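The 9 genes of the epithelial tight junction examined here, CLDN1, CLDN4, CLDN7, OCLN, MARVELD2, F11R, TJP1, CGN and PARD3, were followed in MCF10A SAM cells with and without activation of JUN. They were picked by symbol, each was matched through its Entrez identifier to 1 row of the count table, and so 9 of 23459 genes are described. MCF10A is an immortalized, non-tumorigenic human mammary epithelial line, and SAM cells are a single clone of it carrying dCas9-VP64 and MCP-p65-HSF1, which together activate a promoter marked by a guide RNA. In the 3 NTC libraries the cells received a non-targeting guide, and in the 2 sgJUN#1 libraries a guide to the JUN promoter. Both groups therefore share the clone, the activator proteins and a medium with horse serum, insulin, hydrocortisone, cholera toxin and EGF, and a single guide stands for JUN overexpression.

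Tight junctions seal the space between neighboring epithelial cells close to their apical border. Claudins form the strands that set which ions and solutes may pass, occludin (OCLN), tricellulin (MARVELD2) and the adhesion protein JAM-A (F11R) accompany them in the membrane, and ZO-1 (TJP1) and cingulin (CGN) tie the strands to the actomyosin cytoskeleton. PARD3 is a polarity scaffold that is recruited to the forming junction. The question here was whether the mRNA of these genes differed between cells with raised JUN and control cells.

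Libraries held between 2455627 and 4988062 counts, so that a floor of 3 counts lay between 0.601 and 1.22 CPM, which are counts relative to the size of a library. In NTC replicates 1 to 3, JUN had 25.0, 36.2 and 9.32 CPM, and in sgJUN#1 replicates 1 and 2 it had 171.5 and 265.5 CPM, without overlap. Its log2 fold change was 3.25 (SE 0.484), which missed the threshold of 0.05 in edgeR (adjusted p 0.0733.) The basal epithelial keratin KRT5 was between 151.7 and 454.3 CPM in all libraries, whereas KRT14 was between 0.826 and 3.26 CPM and KRT19 had no count. Of the leukocyte markers CD3E had no count, PTPRC had at most 10 counts in a library, and CD68, a lysosomal protein abundant in macrophages, had 6.33, 8.14 and 3.11 CPM in NTC and 11.35 and 16.1 CPM in sgJUN#1. CD68 had a log2 fold change of 1.26 (adjusted p by edgeR 0.416), and the 3 leukocyte markers together ranged from 5.32 to 8.55 CPM in NTC and from 11.35 to 17.5 CPM in sgJUN#1, with 1 of 3 averaging at least 3 CPM. Their part in the values of the members was not tested. In bulk RNA, fewer cells of a kind and less RNA per cell cannot be told apart.

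None of the members passed the threshold of an adjusted p-value under 0.05. By the quasi-likelihood test of edgeR, 0 of 8 tested members were called, where 0.206% of the 13616 tested genes were, and adjusted p-values ran from 0.376 to 0.976. With unadjusted p-values under 0.05, 1 member was found, OCLN, against 8.38% of all tested genes. DESeq2 and limma-voom also called 0 members. Log2 fold changes were above 0 for OCLN, MARVELD2, CLDN7 and F11R and below 0 for CLDN1, TJP1, PARD3 and CGN. Their median was 0.09, beside -0.0082 over all tested genes. CLDN4 was under the expression filter.

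**Figure D1:**
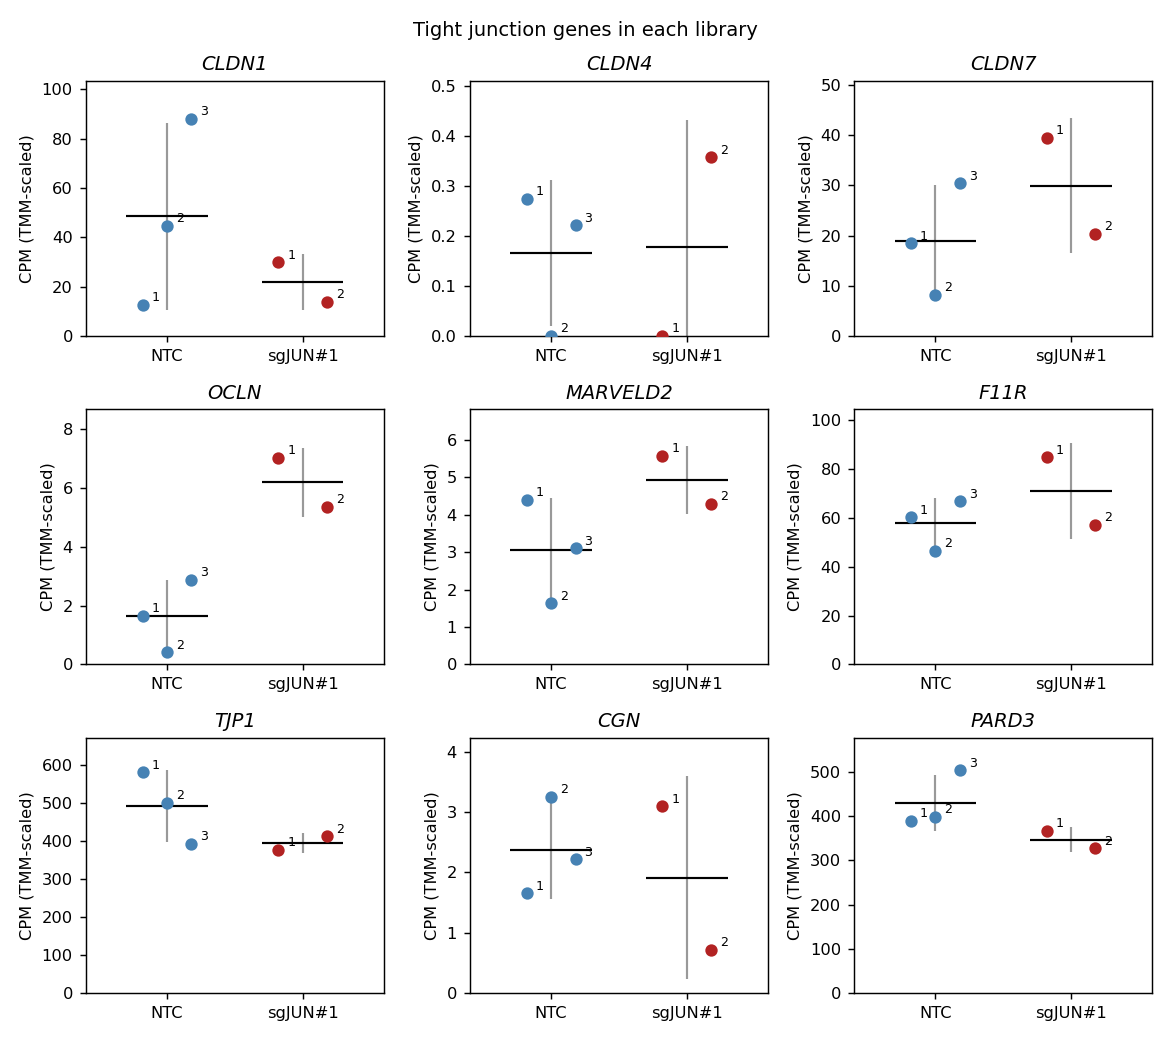
CPM (TMM-scaled, linear axis from 0) of each of the 9 genes in every library, with NTC in blue and sgJUN#1 in red. Numbers beside the points are replicate numbers, black lines are group means, and grey bars are 1 SD, cut at 0 for CLDN4. Both sgJUN#1 points of OCLN, at 5.37 and 7.02 CPM, lie above all NTC points, and both of PARD3, at 327.4 and 366.6 CPM, lie below.

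OCLN (Entrez 100506658, GRCh37 chromosome 5, 68788119 to 68853931, plus strand) encodes occludin, a membrane protein with a MARVEL domain that runs along the strands and takes part in barrier regulation. It had 1.65, 0.407 and 2.88 CPM in NTC replicates 1 to 3, from 6, 1 and 13 counts. In sgJUN#1 it had 7.02 and 5.37 CPM, from 34 and 15 counts. Both sgJUN#1 libraries thus lay above the highest NTC library. NTC averaged 1.65 ± 1.24 CPM (SD, n = 3) and sgJUN#1 6.19 ± 1.17 CPM (SD, n = 2), which gave a log2 fold change of 1.77 (SE 0.551, 95% confidence interval 0.54 to 3.01). The unadjusted edgeR p-value was 0.00979, and the adjusted one of 0.376 did not pass. All of this rests on 20 counts in NTC and 49 in sgJUN#1, and NTC replicate 2 was under the floor of 3 counts. OCLN reached the level of the expression filter in 1 NTC library and in both sgJUN#1 libraries, so that it was tested by virtue of the group in which it was higher. A partial copy of the gene, OCLNP1, had at most 5 counts in a library.

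The promoter of OCLN is shown because its libraries did not overlap between the groups. Windows were taken from RefSeq on GRCh38.p14, from 250 bases before to 50 bases after the annotated start, for the 7 members with an entry, which excludes F11R and PARD3. They were searched on both strands for the AP-1 motif TGANTCA, the TEAD motif GGAATG and the E-box CACCTG, none of which contains another. Of 35116 such windows, 7.71% held the AP-1 motif, 14.0% the TEAD motif and 20.6% the E-box. Among the 7 members the AP-1 motif was present in 1, the TEAD motif in 0 and the E-box in 2. The OCLN window (GRCh38.p14 chr5:69492297-69492596, plus strand) had 1 E-box, in capitals, 33 bases before the start. The CLDN4 window (GRCh38.p14 chr7:73830746-73831045, plus strand) was the one with AP-1 motifs, in capitals, 242 and 161 bases before the start. It was chosen for display after its values were seen.
OCLN: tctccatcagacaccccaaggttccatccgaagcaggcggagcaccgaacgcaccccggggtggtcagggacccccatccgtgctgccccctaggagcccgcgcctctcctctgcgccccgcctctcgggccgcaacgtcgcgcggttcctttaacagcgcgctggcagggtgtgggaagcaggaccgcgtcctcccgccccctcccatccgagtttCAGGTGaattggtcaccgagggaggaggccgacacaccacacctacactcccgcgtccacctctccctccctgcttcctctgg
CLDN4: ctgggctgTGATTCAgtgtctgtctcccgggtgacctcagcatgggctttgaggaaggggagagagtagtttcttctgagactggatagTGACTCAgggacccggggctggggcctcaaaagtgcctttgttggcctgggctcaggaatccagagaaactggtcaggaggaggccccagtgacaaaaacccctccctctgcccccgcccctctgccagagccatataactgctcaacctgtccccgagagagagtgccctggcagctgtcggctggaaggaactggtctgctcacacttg

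CLDN4 (Entrez 1364, GRCh37 chromosome 7, 73213872 to 73247020), a claudin that limits sodium passage in many epithelia, was near the limit of detection. It had 1, 0 and 1 counts in NTC and 0 and 1 counts in sgJUN#1. Every library was under the floor of 3 counts and no fold change was computed, so that a difference was not detectable at this depth.

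MARVELD2 (Entrez 153562, GRCh37 chromosome 5, 68710892 to 68740157) encodes tricellulin, the MARVEL protein of tricellular contacts. It lies on the same strand as OCLN and ends 47961 bp before it. Its levels were 4.40, 1.63 and 3.11 CPM in NTC and 5.57 and 4.29 CPM in sgJUN#1, from 4 to 27 counts per library. The groups overlapped through NTC replicate 1 and sgJUN#1 replicate 2. The log2 fold change was 0.66 (SE 0.466, 95% confidence interval -0.38 to 1.71) and did not pass in edgeR (adjusted p 0.753.) On the linear scale the interval ran from 0.768-fold to 3.27-fold.

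MARVELD3, the remaining MARVEL protein of the junction, was not a member but stood in the wider list. It had 3.03, 2.04 and 3.33 CPM in NTC and 8.26 and 5.73 CPM in sgJUN#1. Its libraries did not overlap between the groups, as with OCLN. The log2 fold change of 1.30 (SE 0.406) had an unadjusted edgeR p-value of 0.0102 and an adjusted one of 0.383.

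CLDN7 (Entrez 1366, GRCh37 chromosome 17, 7163222 to 7167302, minus strand), a claudin found both in junctions and along the lateral membrane, had 18.4, 8.14 and 30.4 CPM in NTC. In sgJUN#1 it had 39.4 and 20.4 CPM. Replicate 1 of sgJUN#1 was the highest of the 5 libraries, and replicate 2 fell inside the NTC range. CLDN7 had a log2 fold change of 0.63 (SE 0.477, 95% confidence interval -0.46 to 1.73) and did not pass in edgeR (adjusted p 0.770.) Without sgJUN#1 replicate 1 it was 0.07. The last 38 bp of CLDN7 overlap the end of ELP5 on the opposite strand, where 3′ reads accumulate, and reads of the pair cannot be told apart without strand. ELP5 was between 47.5 and 58.3 CPM in all libraries, with a log2 fold change of 0.03 (SE 0.205).

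CLDN1 (Entrez 9076, GRCh37 chromosome 3, 190023496 to 190040235, minus strand), the claudin whose loss abolishes the epidermal water barrier, varied widely among the control libraries. It was at 12.7, 44.8 and 88.1 CPM in NTC replicates 1 to 3, a 6.96-fold range. Both sgJUN#1 libraries, at 29.9 and 13.95 CPM, fell within that range. NTC averaged 48.5 ± 37.8 CPM (SD, n = 3) and sgJUN#1 averaged 21.9 ± 11.3 CPM (SD, n = 2), with a log2 fold change of -1.12 (SE 0.788, adjusted p by edgeR 0.765). Its 95% confidence interval, from -3.05 to 0.80, was the widest of the 8 members. The value was -0.31 without NTC replicate 3 and -1.80 without sgJUN#1 replicate 1. In the same NTC replicate 3 the basal epithelial genes KRT5 and ITGB4 were at 454.3 and 292.3 CPM, against at most 210.1 and 118.8 CPM in the other NTC libraries, and in sgJUN#1 KRT5 was at 265.2 and 151.7 CPM and ITGB4 at 26.4 and 26.1 CPM. Log2 fold changes were below 0 for ITGB4 (-2.55, adjusted p by edgeR 0.459), KRT14 (-1.16, 0.66), KRT5 (-0.40, 0.865) and TP63 (-0.11, 0.971). KRT17 was above all NTC libraries in both sgJUN#1 libraries, at 1.80 (adjusted p by edgeR 0.628). KRT14, at 2.20, 3.26 and 2.88 CPM in NTC, was not highest in NTC replicate 3. The part of these in the CLDN1 result was not tested. The 5 basal markers together ranged from 220.6 to 761.5 CPM in NTC and from 195.0 to 311.9 CPM in sgJUN#1, all were detected, and 4 of 5 averaged at least 3 CPM.

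F11R (Entrez 50848, GRCh37 chromosome 1, 160965001 to 160991133, minus strand) encodes JAM-A, an immunoglobulin-like adhesion protein that binds PDZ scaffolds such as ZO-1. It had 60.2, 46.4 and 66.8 CPM in NTC and 84.8 and 57.3 CPM in sgJUN#1. As for CLDN7, sgJUN#1 replicate 1 was above all NTC libraries and replicate 2 among them. On the log2 scale the fold change was 0.30 (SE 0.246, 95% confidence interval -0.25 to 0.85) and did not pass in edgeR (adjusted p 0.789.) In linear terms the interval ran from 0.839-fold to 1.80-fold.

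The scaffolds TJP1 and PARD3 had the narrowest intervals of the members, with at least 915 counts in every library. TJP1 (Entrez 7082, GRCh37 chromosome 15, 29991571 to 30261118), which encodes ZO-1, had 581.7, 502.2 and 393.9 CPM in NTC and 377.5 and 413.2 CPM in sgJUN#1. NTC replicate 3 lay between the sgJUN#1 libraries, so the groups overlapped. TJP1 had a log2 fold change of -0.32 (SE 0.214) and did not pass in edgeR (adjusted p 0.744), and its 95% confidence interval ran from 0.575-fold to 1.12-fold.

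PARD3 (Entrez 56288, GRCh37 chromosome 10, 34398488 to 35104253), which forms the PAR complex with PAR6 and atypical protein kinase C, had 389.2, 398.5 and 504.0 CPM in NTC. In sgJUN#1 it had 366.6 and 327.4 CPM, both below the lowest NTC library. PARD3 had a log2 fold change of -0.31 (SE 0.201) and did not pass in edgeR (adjusted p 0.734). The 95% confidence interval ran from 0.590-fold to 1.10-fold. OCLN and PARD3 were the 2 of 8 tested members whose libraries did not overlap, and 25.0% of all tested genes had such libraries.

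CGN (Entrez 57530, GRCh37 chromosome 1, 151482986 to 151511168), which encodes cingulin, was low throughout. It had 1.65, 3.26 and 2.22 CPM in NTC and 3.10 and 0.716 CPM in sgJUN#1, from 2 to 15 counts. The highest library was NTC replicate 2 and the lowest sgJUN#1 replicate 2, and the groups overlapped. CGN had a log2 fold change of -0.13 (SE 0.642) and did not pass in edgeR (adjusted p 0.976). It was 0.43 without sgJUN#1 replicate 2.

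**Figure D2:**
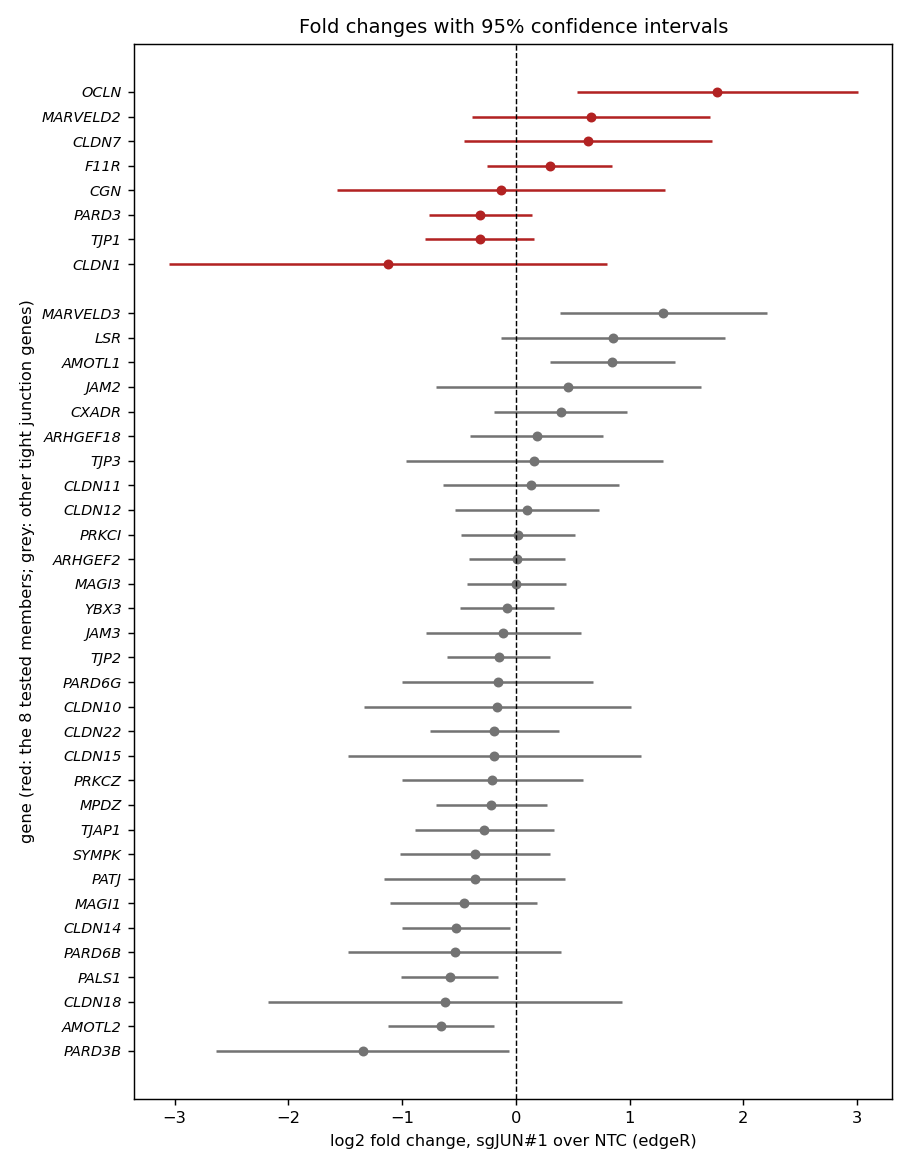
Log2 fold change of sgJUN#1 over NTC (horizontal axis, edgeR) with 95% confidence intervals for the 8 tested members in red and 31 other tested tight junction genes in grey. OCLN, at 1.77, is the member whose interval does not include 0, and CLDN1 and CGN have the longest intervals of the members.

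To place the members among related genes, 48 other genes of the tight junction and its polarity complexes were listed, of which 31 were tested. By edgeR 0 of 31 passed the threshold, with a lowest adjusted p-value of 0.334, as was also the case by DESeq2 and limma-voom. Unadjusted edgeR p-values were under 0.05 for 6 (19.4%), beside 8.38% of all tested genes. Log2 fold changes were above 0 in 12 and below 0 in 19, with a median of -0.16, whereas 49.0% of all tested genes were above 0. Libraries did not overlap between the groups for 6 of 31, beside 25.0% of all tested genes. Of the 18 further claudins, 7 were tested, 11 were under the filter and 3 had no count in any library.

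Among the genes of that list with the largest fold changes, PARD3B, a paralog of PARD3, had 85.8, 98.5 and 294.1 CPM in NTC and 58.8 and 67.3 CPM in sgJUN#1. NTC replicate 3 was far above the rest. On the log2 scale this was a fold change of -1.35 (SE 0.546, adjusted p by edgeR 0.575). LSR, the angulin that recruits tricellulin to tricellular contacts, had 9.63, 12.2 and 18.4 CPM in NTC and 35.5 and 12.5 CPM in sgJUN#1, so that only sgJUN#1 replicate 1 was outside the NTC range. LSR had a log2 fold change of 0.86 (adjusted p by edgeR 0.661). AMOTL1, an angiomotin that binds YAP and junction proteins, had 28.3, 43.1 and 32.6 CPM in NTC and 70.4 and 53.3 CPM in sgJUN#1, without overlap. AMOTL1 had a log2 fold change of 0.85 (SE 0.245, adjusted p by edgeR 0.334).

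Of the genes chosen for a high level in that list, PALS1, a scaffold of the Crumbs complex, had 149.9, 132.3 and 152.6 CPM in NTC and 99.5 and 94.5 CPM in sgJUN#1. These did not overlap, and the log2 fold change was -0.58 (SE 0.190, adjusted p by edgeR 0.424). YBX3 (ZONAB), a ZO-1-binding nucleic acid binding protein, and the scaffold MAGI3 had log2 fold changes of -0.08 (SE 0.184) and 0.0047 (SE 0.195).

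The adherens junction lies just below the tight junction, and 10 of its genes were examined for comparison. All 10 were tested and 0 passed the edgeR threshold, with a lowest adjusted p-value of 0.490. Unadjusted edgeR p-values were under 0.05 for 2 of the 10, beside 8.38% of all tested genes. Log2 fold changes were above 0 in 7 and below 0 in 3, whereas 49.0% of all tested genes were above 0. Libraries did not overlap between the groups for 5 of the 10 (4 higher and 1 lower in sgJUN#1), beside 25.0% of all tested genes. CDH1, which encodes E-cadherin, had 29.7, 35.4 and 57.9 CPM in NTC and 103.2 and 44.4 CPM in sgJUN#1, which is 0.85 as a log2 fold change (adjusted p by edgeR 0.607). CDH3 (P-cadherin) had a log2 fold change of 0.69, NECTIN2 of -0.62 and NECTIN3 of -0.70, with edgeR adjusted p-values of at least 0.490. The catenins CTNNA1, CTNNB1 and CTNND1 had log2 fold changes of 0.20, 0.18 and -0.06.

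Some epithelial genes, named here after their values were seen, differed between the sgJUN#1 libraries and others did not. Replicate 1 was above replicate 2 for LSR, CDH1 and every tested member but TJP1, as given above. For these members the higher library was between 1.12-fold (PARD3) and 4.33-fold (CGN) the lower, with 1.30-fold for MARVELD2 and 1.31-fold for OCLN. The share of all tested genes with this order was not computed, so the order cannot be called particular to the members. TJP1 was slightly lower in replicate 1. Among the luminal or simple epithelial markers, the adhesion gene EPCAM had 143.9 CPM in replicate 1 and 56.5 CPM in replicate 2, against 7.33 to 23.7 CPM in NTC. The splicing regulator ESRP1 had 25.6 and 7.51 CPM in sgJUN#1 and 3.30 to 6.43 CPM in NTC. Neither passed, the adjusted p by edgeR being 0.210 for EPCAM and 0.302 for ESRP1. The keratin gene KRT8 was at 16.3 and 16.1 CPM in sgJUN#1 and KRT18 at 50.2 and 34.4 CPM, with log2 fold changes of -0.36 and 0.05. GRHL2, an activator of epithelial genes, had 5.37 CPM in both sgJUN#1 libraries and 4.68, 7.33 and 7.10 CPM in NTC. Other activators differed between the sgJUN#1 libraries in both directions. GRHL1 (23 and 3 counts) and OVOL1 (7 and 0 counts), both under the filter, were higher in replicate 1. KLF4, at 4.75 and 7.16 CPM, was higher in replicate 2.

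The 5 luminal or simple epithelial markers summed to between 61.9 and 98.7 CPM in the NTC libraries, and to 235.9 and 114.5 CPM in sgJUN#1 replicates 1 and 2. Without EPCAM the sums were between 54.5 and 75.4 CPM in NTC, and 92.05 and 57.96 CPM in sgJUN#1. Of the 5, 4 averaged at least 3 CPM and KRT19 was at 0, and their part in the values of the members was not tested. The 6 mesenchymal markers, mostly FN1 and VIM by level, together ranged from 1048 to 3123 CPM in NTC and from 1506 to 2390 CPM in sgJUN#1. CDH2 (N-cadherin), which is one of them, had 77.6, 75.3 and 72.1 CPM in NTC and 46.2 and 46.5 CPM in sgJUN#1, without overlap. Its log2 fold change of -0.69 (SE 0.193) had an unadjusted edgeR p-value of 0.00536 and an adjusted one of 0.302. Of the other mesenchymal markers, VIM and FN1 had log2 fold changes of 0.21 and 0.07, and their groups overlapped. COL1A1, COL1A2 and PDGFRB were under the filter. COL1A1, with at most 2.27 CPM, was higher in both sgJUN#1 libraries than in any NTC library.

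**Figure D3:**
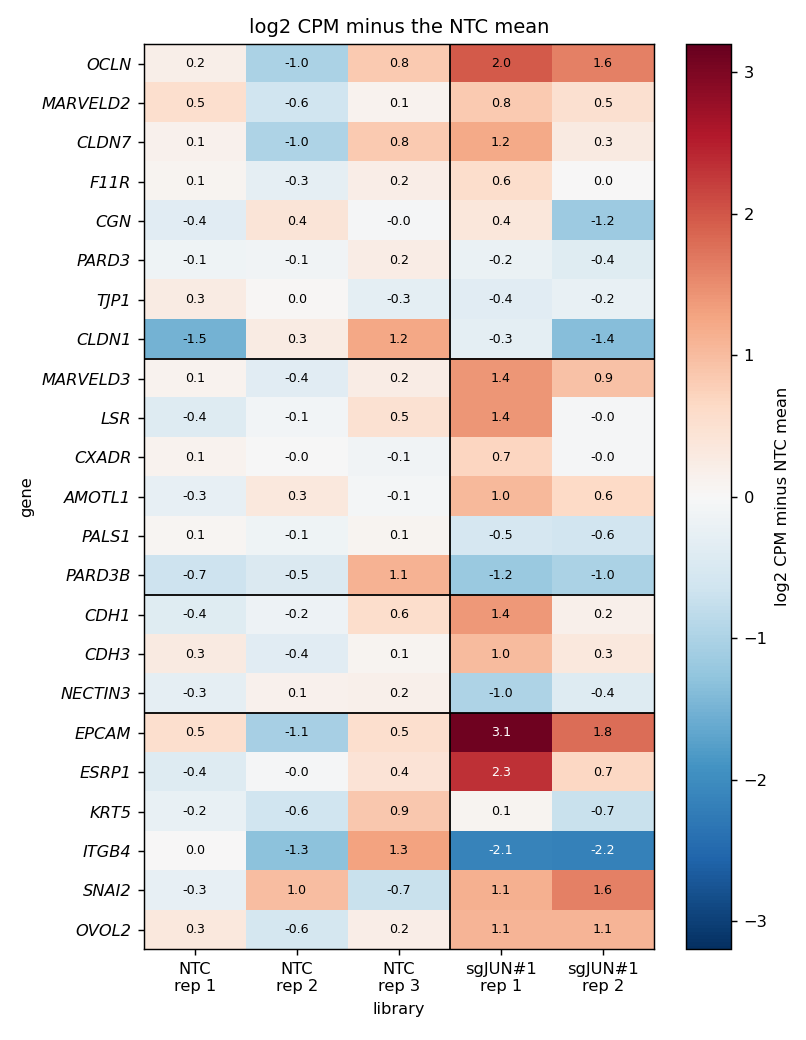
Log2 CPM of each gene (rows) in each library (columns) minus the NTC mean of that gene, with red above and blue below it and the value printed in each cell. Rows show the 8 tested members, then other tight junction genes, adherens junction genes and epithelial genes or regulators, which were chosen after their values were seen. The columns of the sgJUN#1 libraries differ for CLDN1, CLDN7, CGN, LSR, CDH1, EPCAM and ESRP1, among others. CLDN1 is about as low in NTC replicate 1 as in sgJUN#1 replicate 2.

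Transcription factors known to act on junction genes were listed too, 8 activators and 5 repressors of epithelial genes. Of the 13, 9 were tested and 0 passed by edgeR. Unadjusted edgeR p-values were under 0.05 for 2 of the 9, beside 8.38% of all tested genes. SNAI2 (Slug), a repressor of E-cadherin and claudin genes, had 26.96, 65.5 and 19.5 CPM in NTC and 72.0 and 101.6 CPM in sgJUN#1, which is 1.24 as a log2 fold change (SE 0.466, adjusted p by edgeR 0.522). OVOL2, which maintains epithelial identity, had 2.75, 1.22 and 2.44 CPM in NTC and 4.95 and 5.01 CPM in sgJUN#1, which is 1.15 as a log2 fold change (SE 0.457, adjusted p by edgeR 0.530). In both genes the sgJUN#1 libraries were above all NTC libraries, as in 12.2% of all tested genes. OVOL2 had 10, 3 and 11 counts in NTC and, like OCLN, passed the expression filter through the sgJUN#1 group. KLF4, KLF5 and ZEB1 had log2 fold changes of 0.95, -0.38 and 0.10, with edgeR adjusted p-values of at least 0.697.

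Genes with a pattern most like OCLN were found by the root mean square difference in log2 CPM, centered on the NTC mean, over the 5 libraries. Among 13615 tested genes the nearest were SCEL at 0.225, CFI at 0.256, AARD at 0.313, LRATD2 at 0.339 and DAPP1 at 0.392, where the median gene stood at 1.31. SCEL encodes sciellin, a precursor of the cornified envelope, and had 5, 1 and 8 counts in NTC and 35 and 13 counts in sgJUN#1. CFI, which encodes complement factor I, had 25, 9 and 38 counts in NTC and 125 and 47 in sgJUN#1. The 5 genes were chosen for closeness to OCLN over these same libraries, so that fold changes near that of OCLN follow from the choice. Their log2 fold changes ran from 1.49 to 2.60 and their edgeR adjusted p-values from 0.109 to 0.341, so that none was called. Like OCLN, the genes SCEL, AARD and DAPP1 passed the expression filter through the sgJUN#1 group. Several of these genes share the low counts of OCLN, and a likeness over 5 libraries is a description only.

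The fold changes were recomputed in 14 alternatives of normalization, filter, test, depth and libraries. OCLN kept a log2 fold change between 1.43 and 2.55 in all of them, whereas CLDN1 ran from -1.80 to -0.17 and CLDN7 from 0.07 to 1.18. TJP1 and PARD3 stayed between -0.45 and -0.18 and between -0.39 and -0.18. In 0 of 107 refitted values of single members was the threshold passed.

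**Figure D4:**
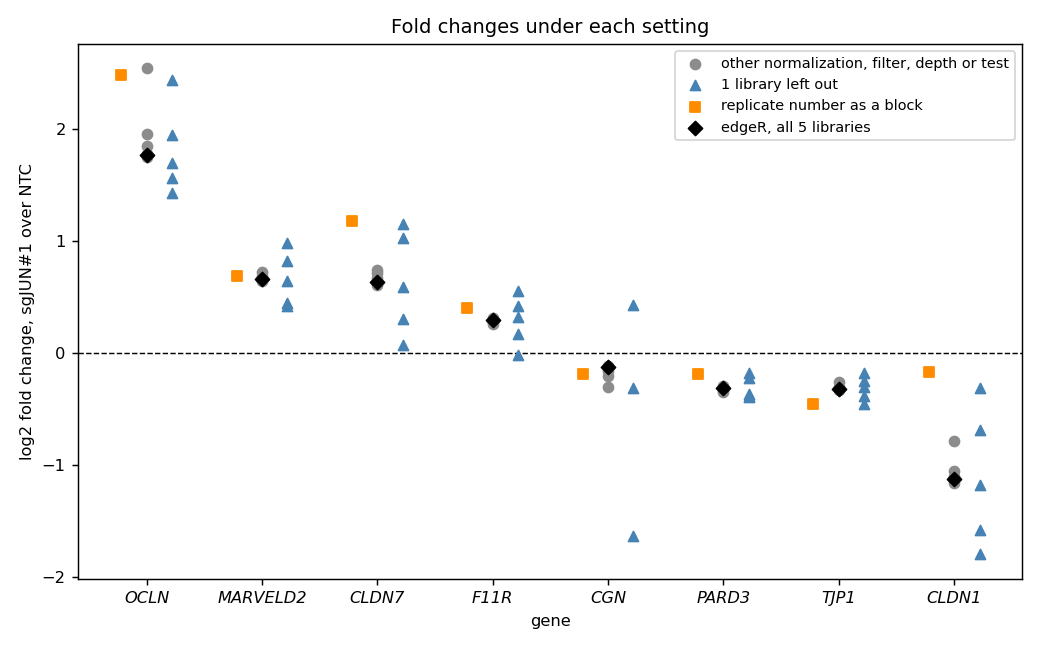
Log2 fold change of sgJUN#1 over NTC (vertical axis) for each tested member under the edgeR fit with all 5 libraries (black diamonds), other processing (grey circles), 1 library left out (blue triangles) and the replicate number as a block (orange squares). OCLN stays above 1.43 throughout, and the triangles of CGN and F11R lie on both sides of 0.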

How the data were processed

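RNA from 3 NTC and 2 sgJUN#1 samples was made into QuantSeq 3′ mRNA-Seq FWD libraries. The authors deposited raw read counts for each gene, which they obtained, per the labels and methods, after trimming with cutadapt 4.2, alignment to hg19 with Bowtie2 2.3.5.1 and counting with countOverlaps. The annotation, the use of strand, the treatment of multiple alignments and molecular identifiers are not given in the sources used here. Reads of overlapping or near-identical genes may therefore be misassigned. The confidence intervals reflect counting error and the spread between libraries, but not such misassignment. The study calls the replicates of this comparison biological but states fewer of them than the NTC libraries used here, and the labels do not say which were separate cultures, so part of the spread that p-values measure may be technical. Within each group, replicates differed by more than counting noise (chi-square per degree of freedom of at least 7.62), and each was kept as 1 sample.

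Symbols came from RefSeq (99.36% of 23459 Entrez identifiers matched) and positions from GENCODE v44 on GRCh37, which corresponds to hg19. Counts were tested by edgeR 4.0.16 with its quasi-likelihood F test in R 4.3.3 (TMM normalization, filterByExpr, robust estimation, group as the only term). The filter required 2.68 CPM in at least 2 libraries and kept 13616 genes, 8 of them members. OCLN reached that level in 1 NTC and 2 sgJUN#1 libraries, and so passed through the sgJUN#1 group, whereas CGN reached it in 1 library of each group and the other 6 in at least 2 NTC libraries. Benjamini-Hochberg adjustment covered all 13616 genes, with a threshold of 0.05 for the adjusted p-value. SE is the log2 fold change over the square root of F, and intervals use the moderated degrees of freedom. Alternatives were RLE, upper-quartile and total-count scaling, no filter, a mean of at least 10 counts, DESeq2 1.42.0, limma-voom (limma 3.58.1), thinned counts, a replicate block and leaving out each library. The procedure was tested on simulated data with 200 changed genes. All of these had higher mean counts than OCLN, MARVELD2, CGN and CLDN4, so the simulation does not show what was detectable for those members.

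The members and gene lists were chosen with earlier results of these data known. All members were named. In the lists beside them, the 4 largest fold changes and the 3 highest levels were named, together with any gene past the threshold, and for OCLN, the member of lowest p-value, the 5 nearest genes. Marker genes, and genes said to be chosen after their values were seen, are named besides. No protein sequences were used here.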

Additional observations from a re-analysis of the deposited data

How the results depend on the processing

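The count of 0 members past the threshold, and of 0 of the other tight junction genes, was the same under all 14 alternatives, which include DESeq2, limma-voom and the fit with no filter. In the fits that kept both sgJUN#1 libraries, unadjusted p-values under 0.05 were reached by 1 to 3 members. The count was 3 of 8 with the replicate block, where 1174 of all 13616 tested genes reached it. It was 3 of 7 without NTC replicate 3, where 1054 of 12987 did. With sgJUN#1 replicate 1 or 2 left out, 1 library stands for that group and is assumed to vary like NTC. Of 107 refitted values of single members, 105 kept their direction. The exceptions were F11R at -0.018 without sgJUN#1 replicate 1 and CGN at 0.43 without sgJUN#1 replicate 2. With single libraries left out, F11R ran from -0.018 to 0.56 and CGN from -1.64 to 0.43. The adjusted p-values of OCLN ran from 0.121 to 1.0 and those of CLDN7 from 0.113 to 1.0. CGN could not be fitted under 4 alternatives and MARVELD2 under 1, being below their filters.

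Over all genes, 28 passed the edgeR threshold (11 higher, 17 lower), and 148 with no filter (73 higher, 75 lower), 136 with DESeq2 (66 higher, 70 lower) and 103 with the replicate block (54 higher, 49 lower). Leaving out single libraries gave 10 to 57. It was 10 without NTC replicate 1, 56 without NTC replicate 2 and 57 without NTC replicate 3. The cause was not tested.

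Both groups have replicates numbered 1 and 2, but no label ties a number to a shared day. The library identifiers of NTC and sgJUN#1 samples with the same replicate number are adjacent, which does not state a shared batch. Samples were therefore not treated as pairs. The difference between replicates 1 and 2 correlated at 0.0146 between NTC and sgJUN#1 over genes. A correlation over all genes cannot tell whether a part of them shared a batch. The fit with the replicate block has 1 residual degree of freedom. In it OCLN had a log2 fold change of 2.48 (edgeR adjusted p-value 0.121), CLDN7 1.18 (0.113) and CLDN1 -0.17 (0.989), and 0 members were called. Depth limited OCLN, MARVELD2, CGN and CLDN4, each with fewer than 10 counts in at least 1 library.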

Other observations

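The angiomotins AMOTL1 and AMOTL2, scaffolds that bind YAP and tight junction proteins, stood on opposite sides of NTC, and AMOTL2 is named here after its values were seen. AMOTL2 had 78.9, 74.5 and 96.5 CPM in NTC and 52.2 and 53.7 CPM in sgJUN#1, without overlap. On the log2 scale its fold change was -0.66 (SE 0.207, adjusted p by edgeR 0.392), against 0.85 (SE 0.245, adjusted p by edgeR 0.334) for AMOTL1. Neither passed the threshold, and the difference between them was not tested.

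CLDN14, also named after its values were seen, is a claudin best known from the inner ear and kidney. It had 52.3, 62.3 and 67.2 CPM in NTC and 40.5 and 43.7 CPM in sgJUN#1. The groups did not overlap, and the log2 fold change was -0.53 (SE 0.212, adjusted p by edgeR 0.536). CRB3, a Crumbs protein of the apical membrane, had 0, 0 and 2 counts in NTC and 17 and 1 counts in sgJUN#1 and was under the filter, so that its level in sgJUN#1 rests on replicate 1.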
